A study of Mus musculus with 123 samples.

Results

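The small heat shock proteins of the heart were followed through 7 genes, Hspb1, Hspb2, Hspb3, Hspb6, Hspb7, Hspb8 and Cryab, in single GFP+ cells from αMHC-GFP mouse hearts. The 7 genes were chosen with earlier results of these data in view, from their count rows, which are 7 of the 23337 of the count table. The choice used the CPM in each cell (counts per 1000000 counts of that cell), the share of cells with each gene and the absence of Hspb6 at embryonic day 9.5 (E9.5). Levels, shares and differences between ages are therefore given below as a description, with no test.

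The αMHC+ cells of the study were sorted by fluorescence and captured on Fluidigm C1 chips, and the count table used here held 42 of them at E9.5, 29 more at E12.5 and 52 on postnatal day 1 (P1). All cells carried the same αMHC-GFP reporter, no other allele or treatment was named, and the αMHC promoter, which is active in cardiomyocytes, decided which cells could be sorted. The embryonic hearts were dissociated with collagenase and the P1 hearts for longer with Liberase, so age and digestion cannot be told apart. No animal or litter was named for any cell, so each age counted as 1 sample, and the intervals given below are exact and cover counting error in that sample only. The names of the cells fell into sets, which are kept apart here because their depth differed: set C (14 cells) and set N530 (28 cells) at E9.5, set C (20 cells), set N523 (8 cells) and a lone cell named E12-5b at E12.5, and set C alone at P1.

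Cells with 2000 or more genes were used, which kept all embryonic cells and 41 P1 cells, 112 of 123 in all. Their totals ran from 69522 to 7711355 counts, with a median of 2476022 for the E9.5 cells, 493238 for the E12.5 cells and 149078 for the P1 cells. The deep sets were N530 and N523, in which no cell had fewer than 1437114 counts. At the gene minimum, the P1 cell just above it (2124 genes) had 1357 CPM of Hspb6 and 1140 CPM of Cryab, the E9.5 cell nearest above it (2051 genes) had none of either, and the P1 cell just below it (1985 genes) had 148 and 1261 CPM. At least 6 of 10 cardiomyocyte markers reached 10 counts in 39 of 42 cells at E9.5, 29 of 29 at E12.5 and 40 of 41 at P1. The 3 E9.5 cells that lacked them held no count of any of the 7 genes apart from 2 counts of Cryab, and the P1 cell that lacked them held 2 counts each of Hspb7 and Cryab.

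Small heat shock proteins share an α-crystallin domain, form oligomers and hold partly unfolded proteins in a soluble state without using ATP, until chaperones of the HSP70 family refold them or the client is degraded. In heart muscle they are known for binding to the sarcomere and its scaffold, among them desmin, titin and filamin C. Cryab encodes αB-crystallin, which protects desmin filaments. Hspb2 is a muscle protein that binds the kinase Dmpk and forms complexes with Hspb3, and Hspb7 is a cardiac protein that binds filamin C. Hspb8 works with Bag3 in chaperone-assisted autophagy, and Hspb1 is a widely expressed, stress-inducible member. Hspb6, also called Hsp20, is a muscle protein phosphorylated by protein kinase A.

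On the GRCm38 build, Hspb1 lies at chr5:135887919-135889563 (plus strand), Hspb3 at chr13:113662896-113663676 (minus strand), Hspb6 at chr7:30552178-30555443 (plus strand), Hspb7 at chr4:141420779-141425311 (plus strand) and Hspb8 at chr5:116408491-116422864 (minus strand). Hspb2 at chr9:50751078-50752354 (minus strand) and Cryab at chr9:50751325-50756636 (plus strand) are neighbours on opposite strands that overlap over 252 exonic bases. These are 30.2% of the exonic bases of Hspb2 and 17.0% of those of Cryab. Whether the counting used strand is not given in the sources used here, so counts of Hspb2 and Cryab are uncertain where the genes overlap. The exons of Hspb6 share 122 bases with Proser3 and 77 with Gm38670, which have no row of that name in the count table, and 3 with Lin37.

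Hspb6 is the gene without a count at E9.5, and Hspb1 is a stress-inducible member that was present at every age. Their promoters are printed as the 250 bases before the start of transcription. They are RefSeq sequences of GRCm38.p6, 5′ to 3′ on the plus strand, for chr7:30553051-30553300 (the second of the starts listed for Hspb6) and chr5:135887669-135887918, and capitals mark the heat shock element letters GAANNTTC.
Hspb6: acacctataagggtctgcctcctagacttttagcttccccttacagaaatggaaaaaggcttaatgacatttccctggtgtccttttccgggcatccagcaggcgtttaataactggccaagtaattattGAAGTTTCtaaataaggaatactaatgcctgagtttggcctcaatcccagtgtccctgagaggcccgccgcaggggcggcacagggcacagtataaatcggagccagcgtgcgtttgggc
Hspb1: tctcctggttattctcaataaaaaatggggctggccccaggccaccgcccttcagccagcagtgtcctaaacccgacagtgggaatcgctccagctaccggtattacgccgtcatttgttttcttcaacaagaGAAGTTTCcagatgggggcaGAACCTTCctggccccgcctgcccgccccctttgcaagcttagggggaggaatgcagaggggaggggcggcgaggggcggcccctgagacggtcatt
The letters GAANNTTC occurred once before this start of Hspb6, 120 bases upstream, and in 2 places before Hspb1, 117 and 97 bases upstream. GAANNTTC reads the same on both strands, and 6.69% of 32851 promoter windows of this length held it. Promoters of 5 of the 7 genes were matched, and those of Hspb2 and Cryab were not. Hspb3 held the letters in 1 place, 224 bases upstream, and Hspb7, Hspb8 and the other listed start of Hspb6 in none. The reverse arrangement TTCNNGAA, also the same on both strands, was in none of the 6 windows and in 7.17% of all windows. CANNTG, the E-box letters, occurred before Hspb1, Hspb3, Hspb7 and Hspb8 and in 66.2% of all windows. Such a match describes the letters and says nothing of binding.

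Hspb6 was the gene that divided the ages. At E9.5 no cell held a count of it, in 101042067 counts over 42 cells, which allows a pooled level of up to 0.0297 CPM, and the interval of its share of cells ran from 0 to 8.41%. At E12.5 it was found in 12 of 29 cells (41.4%, interval 23.5 to 61.1), with a median of 0 and a maximum of 1797 CPM per cell. At P1 it was found in 37 of 41 cells (90.2%, interval 76.9 to 97.3), with a median of 668, quartiles of 304 and 1177 and a maximum of 1778 CPM. The 4 P1 cells without a count of Hspb6 were at 0, as were all E9.5 cells. The E12.5 cells with the gene reached 482 CPM, apart from 1 at 1797 CPM.

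The pooled level of Hspb6, the sum of its counts over the sum of all counts at an age, was 0 CPM at E9.5. It was 261 CPM at E12.5 and 729 CPM (interval 709 to 750) at P1. The E12.5 value rested on 1 cell. That cell, of the deep set N523, held 12092 counts of Hspb6 and 91.6% of all its counts at E12.5, and without it the pooled level was 25.2 CPM. The other 11 cells with Hspb6 ran from 3.73 to 482 CPM, so that most E12.5 cells with the gene lay far below the typical P1 cell. By naming set, Hspb6 was found in 9 of 20 cells of set C (60.97 CPM) and in 2 of 8 cells of set N523 (302 CPM), and in the E12-5b cell at 122 CPM. Without the top cell of each, set C stood at 28.8 CPM and N523 at 15.4 CPM.

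At P1 the cells fell on either side of a gap. Hspb6 was at 304 to 1778 CPM in 31 cells and under 71.98 CPM in the other 10, of which 4 had no count and 6 had 14.0 to 71.98 CPM. None of the 41 kept P1 cells lay between 71.98 and 304 CPM, whereas the left-out cell with 1985 genes did, at 148 CPM.

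**Figure D1:**
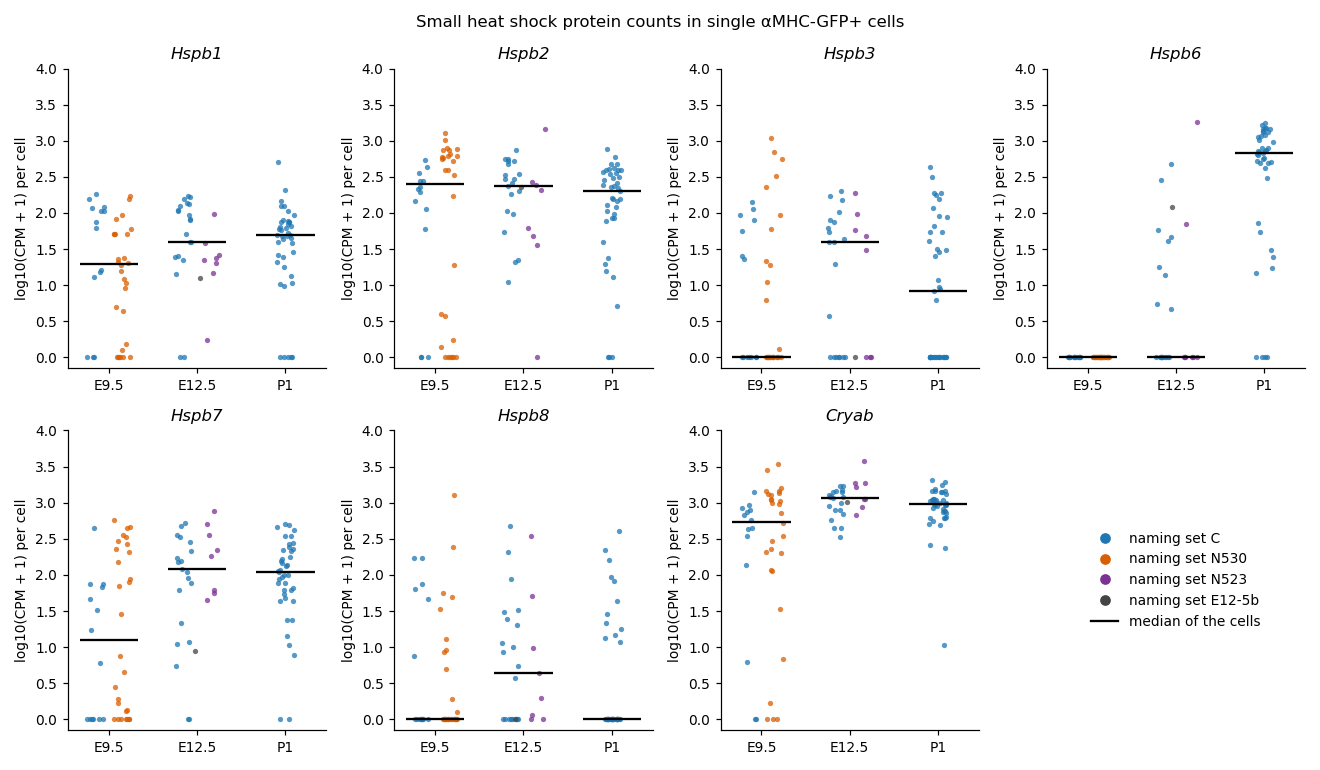
Level of each of the 7 genes in every kept cell, as log10(CPM + 1) on the vertical axis, by age on the horizontal axis, with points coloured by naming set and a black line at the median of the cells. Hspb6 sits at 0 in all 42 E9.5 cells and at a median of 668 CPM at P1, whereas Cryab has a median of 546 CPM at E9.5 already.

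Cryab was on from the earliest age. At E9.5, 37 of 42 cells held it (88.1%), as did 29 of 29 cells at E12.5 and 41 of 41 at P1. Its median level per cell was 546 CPM at E9.5 (0 to 3438), 1148 CPM at E12.5 (maximum 3794) and 953 CPM at P1 (maximum 2079). The ages overlapped over most of this range, and pooled levels were 860, 1572 and 988 CPM. The E9.5 cells were the most uneven. Of the 39 E9.5 cells with cardiomyocyte markers, 5 were under 10 CPM of Cryab, 3 of which had no count, with a median of 677 CPM over the 39. By set, Cryab stood at 536 CPM in set C and 879 CPM in set N530 at E9.5, and at 1047 CPM in set C and 1683 CPM in set N523 at E12.5, so the deep set was above set C at both embryonic ages.

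Hspb2, the neighbour of Cryab and a partner of Hspb3, was present in 33 of the 42 E9.5 cells (78.6%), 28 of 29 at E12.5 (96.6%) and 38 of 41 at P1 (92.7%). Its median per cell was 250 CPM among the E9.5 cells (0 to 1298), 235 CPM among the E12.5 cells (0 to 1439) and 202 CPM among the P1 cells (0 to 758). Pooled levels went from 392 to 284 and 213 CPM, but set C alone stood at 203, 294 and 213 CPM, with no order by age. At E12.5 a single N523 cell held 46.7% of its counts, and without that cell the pooled level was 167 CPM. Across cells, the log2(CPM + 1) values of Hspb2 and Cryab had a Pearson correlation of 0.95 in the 14 set C cells at E9.5, which include 3 cells with almost no count of either, 0.42 in the 28 N530 cells, 0.04 in the 20 set C cells at E12.5 and 0.37 in the 41 P1 cells. The cells of an age belong to 1 sample and differ in depth, and exons of the genes overlap.

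Hspb3, the smallest gene of the family here, was absent from many cells at every age, and the intervals of its shares overlapped. Counts of it were in 19 of the 42 E9.5 cells (45.2%), 18 of 29 at E12.5 (62.1%) and 22 of 41 at P1 (53.7%). The median cell was at 0, 38.6 and 7.26 CPM and the highest at 1093, 200 and 431 CPM. The pooled level of 129 CPM at E9.5 rested on 1 N530 cell with 47.7% of the counts. Without it the level was 71.4 CPM, and set C stood at 35.95 CPM at E9.5, beside 50.6 CPM over all cells at both later ages.

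Hspb7, which binds filamin C, was already found in 29 of 42 cells at E9.5 (69.05%) and then in 27 of 29 at E12.5 (93.1%) and 39 of 41 at P1 (95.1%). The median cell had 11.5 CPM at E9.5 (maximum 579), 118 CPM at E12.5 (maximum 769) and 109 CPM at P1 (maximum 502). The lower E9.5 median came with many cells at or near 0, and the highest cells of the ages overlapped. Pooled levels were 148, 275 and 167 CPM, and set C alone gave 60.99, 173 and 167 CPM. In set C at E9.5, 1 of 14 cells held 60.7% of the counts, and the level was 26.1 CPM without it.

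Hspb1 was present in 33 of the 42 E9.5 cells (78.6%), 27 of 29 at E12.5 (93.1%) and 36 of 41 at P1 (87.8%), at low levels throughout. The median E9.5 cell had 18.6 CPM (0 to 182), the median E12.5 cell 38.5 CPM (0 to 173) and the median P1 cell 47.98 CPM (0 to 505). Pooled levels were 33.9, 32.6 and 59.1 CPM. The direction turned with the naming sets. Set C was at 67.8 and 74.7 CPM at the embryonic ages, above P1, whereas N530 and N523 were at 31.9 and 24.6 CPM, below it.

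Hspb8, the partner of Bag3, was the least often found of the genes that had counts at E9.5, although level with Hspb3 at E12.5. It had counts in 17 of the 42 E9.5 cells (40.5%), 18 of 29 at E12.5 (62.1%) and 12 of 41 at P1 (29.3%). The median cell was at 0, 3.41 and 0 CPM, with maxima of 1263, 474 and 400 CPM. The pooled levels of 38.2, 44.2 and 30.1 CPM depended on single cells, of which the highest held 57.6% of the E9.5 counts, 71.7% of the E12.5 counts and 35.6% of the P1 counts. Without those cells the levels were 16.5, 13.8 and 20.3 CPM.

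The depth of a cell decides how often a rare transcript is seen, so every cell was also thinned at random to 60000 counts. Hspb6 was then found in 0 of 42, 11 of 29 (37.9%) and 35 of 41 cells (85.4%), and Cryab in 34 of 42 (81.0%), 29 of 29 and 41 of 41. Hspb1 was found in 26, 19 and 32 cells, Hspb2 in 28, 27 and 34, and Hspb7 in 23, 25 and 36. Hspb3 was found in 16, 15 and 19 cells and Hspb8 in 12, 10 and 11. The high share of Hspb8 at E12.5 was lost (34.5%, against 28.6% at E9.5 and 26.8% at P1). Counting a gene as on where at least 50% of cells held it, Hspb1, Hspb2, Hspb7 and Cryab were on at E9.5 with and without thinning, and Hspb6 was on at P1 alone.

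**Figure D2:**
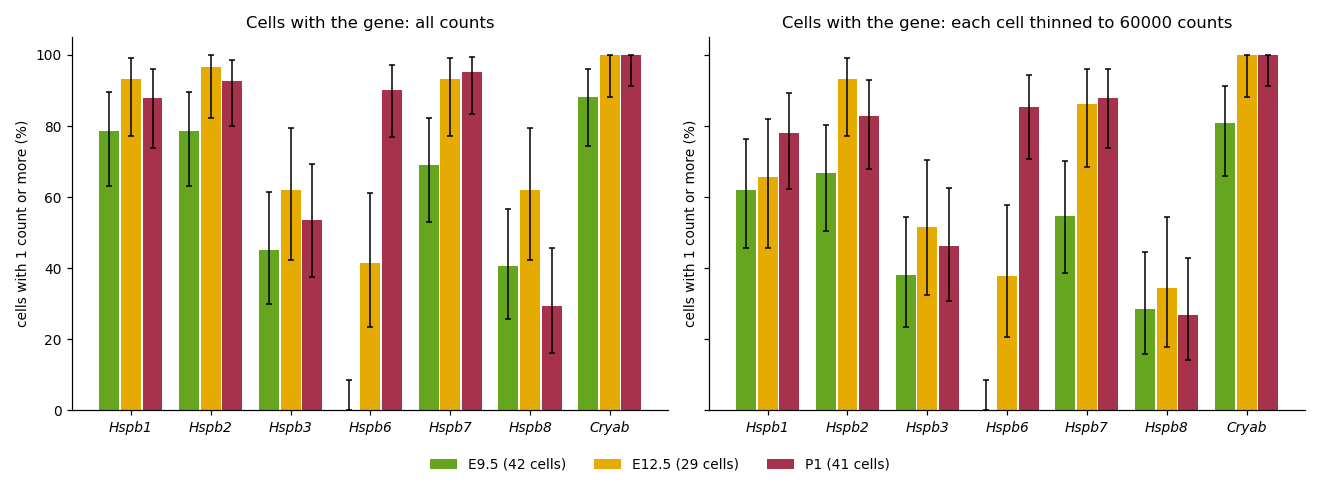
Percentage of cells with 1 count or more of each gene at E9.5, E12.5 and P1, from all counts (left) and after each cell was thinned to 60000 counts (right), with exact binomial 95% intervals as error bars. Hspb6 goes from 0% to 41.4% and 90.2% of cells on the left and to 37.9% and 85.4% on the right, while Cryab starts at 88.1% and 81.0%.

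Per cell, a median of 4 of the 7 genes was found at E9.5, rather than 5 in E12.5 cells and 6 in P1 cells, and of 4, 5 and 5 after thinning. All 7 were found together in 0, 4 and 4 cells. At E9.5, 2 cells of set C had none of them.

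Levels of different genes were compared as mean TPM, a scale of transcripts that the authors computed from counts and gene length. At E9.5 the order was Cryab (1265 TPM), Hspb2 (809), Hspb3 (219), Hspb1 (103), Hspb7 (70.4) and Hspb8 (65.2), with Hspb6 at 0 TPM. Cryab and Hspb2 held the top of this order in set C (903 and 496 TPM) and in set N530 (1447 and 965 TPM), but the ranges of the pair over the sets overlapped. Below them Hspb1 lay above Hspb3 in set C (152 and 98.5 TPM) and below it in N530 (78.7 and 279 TPM), and Hspb7 and Hspb8 were within 10 TPM of each other in both sets. The Hspb8 mean in N530 (76.9 TPM) rested on 1 cell at 1630.2 TPM, without which it was 19.3 TPM. At E12.5 the order was Cryab (1834 TPM), Hspb2 (607), Hspb6 (132), Hspb1 (127), Hspb3 (119), Hspb7 (117) and Hspb8 (42.7). Here Cryab and Hspb2 did not overlap over the sets, and the places of the next 4 genes changed between set C and N523, where Hspb6 stood at 74.3 and 268 TPM. Its place rested on 1 cell at 2059 TPM, without which its mean over all E12.5 cells was 63.0 TPM, below Hspb7. At P1 the order was Cryab (1349 TPM), Hspb6 (889), Hspb2 (435), Hspb1 (114), Hspb3 (108), Hspb7 (91.4) and Hspb8 (24.3), and with 1 naming set no spread over sets can be given for it.

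**Figure D3:**
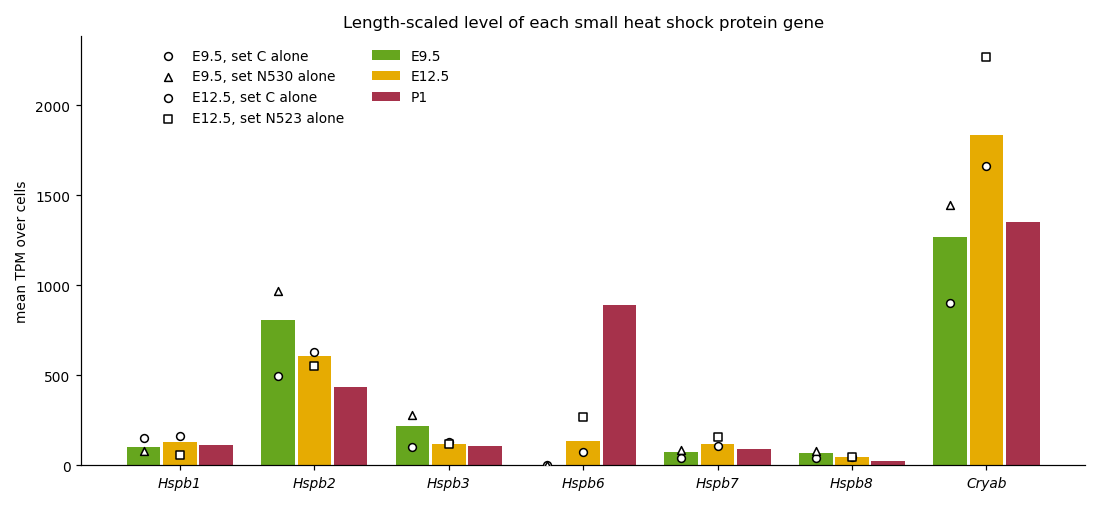
Mean TPM over cells of each gene at E9.5, E12.5 and P1 (bars, from 0), with open symbols for each naming set of 6 cells or more alone. Cryab is the highest bar at every age (1265, 1834 and 1349 TPM), and Hspb6 goes from 0 to 132 and 889 TPM.

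Within single cells, Cryab had the highest TPM of the 7 genes in 22 of the 40 E9.5 cells with any of them, in 28 of 29 cells at E12.5 and in 27 of 41 at P1. Hspb2 was the highest in 12 E9.5 cells. At P1, Hspb6 was the highest in 12 of 41 cells, and in 12 cells its TPM exceeded that of Cryab, which it did in no E12.5 cell. The median share of Hspb6 in the summed TPM of the 7 genes was 31.1% per P1 cell, and the median share of Cryab was 50.1%, 60.6% and 46.4% per cell at the 3 ages. The sum itself, as mean TPM over cells, was 2532, 2978 and 3010 TPM over all cells. It depended on the naming set, at 1731 TPM in set C and 2932 TPM in N530 at E9.5 and at 2799 TPM in set C and 3465 TPM in N523 at E12.5, so the order of the later ages turned with the set.

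Ratios between ages were taken from pooled CPM, and a gene was called where it was at 10 CPM or more at the higher age, differed by 4-fold or more over all cells and differed in the same direction, by any amount, in every combination of naming sets of 6 cells or more. From E9.5 to E12.5, Hspb6 alone of the 7 genes was called higher, at least 8795-fold higher against the 3 counts that a count of 0 allows, with bounds over the naming sets from at least 114-fold to at least 9615-fold. Without the E12.5 cell with the most counts the bound was at least 849.5-fold. The bounds by set also fall without the top cells, where E12.5 stood at 28.8 CPM in set C and 15.4 CPM in N523. The limit for a count of 0 in set C at E9.5 was 0.537 CPM. Of 8647 genes tested, 4.66% were called higher at E12.5 and 16.0% lower, and none of the 7 genes was called lower. At P1 against E9.5, Hspb6 was again the only call, at least 24560-fold higher over all cells and at least 1359-fold to at least 23201-fold over the naming sets, beside 10.2% of 9003 genes called higher and 21.4% called lower, with 0 of the 7 lower. At P1 against E12.5, none of the 7 was called in either direction, beside 17.5% of 8122 genes higher and 14.2% lower. Because the 7 genes were chosen on these contrasts, these counts describe them only, and the 3 ratios share their cells.

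Between P1 and E12.5 the ratio of Hspb6 depended on the cells that entered. It was 2.79-fold higher at P1 over all cells (log2 ratio 1.48, interval 1.43 to 1.53), 11.96-fold against set C of E12.5 and 2.41-fold against N523. Without the E12.5 cell with the most counts it was 28.9-fold. With all P1 cells kept and the top cell of the E12.5 set left out, it was 25.3-fold against set C and 47.3-fold against N523. Hspb6 passed the 4-fold rule without the cell with the most counts, with set C alone, with means over cells in place of pooled counts, or thinned. None of the other 6 genes did, and their log2 ratios lay between -1.35 and 0.89 in the 3 comparisons of ages. The median log2 ratio of all genes tested was -0.59 for P1 against E9.5, 0.05 for P1 against E12.5 and -0.60 for E12.5 against E9.5, and other scaling factors moved the 3 ratios by 0.17, -0.26 and 0.43.

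The ratios of the other genes often turned between naming sets. For E12.5 against E9.5, Hspb1 ran from -1.46 to 1.23, Hspb2 from -0.51 to 0.53 and Hspb3 from -1.42 to 0.61 on the log2 scale. Cryab was higher at E12.5 in every combination (0.25 to 1.65), as was Hspb7 (0.17 to 2.29). Without the top cell of each set the range was 0.31 to 1.52 for Cryab and 0.21 to 3.20 for Hspb7, whose upper end came from set C at E9.5. Hspb8 ran from 0.10 to 0.42, but from -2.30 to 0.49 without the top cells of the sets, and Hspb2 then ran from -1.48 to 0.60. For P1 against E9.5, Hspb7 ran from 0.12 to 1.45 and Cryab from 0.17 to 0.88, and Hspb8 from -0.43 to -0.34. Without the top cell of each set, Hspb7 ran from 0.26 to 2.57, past 4-fold against set C but not against N530, and Hspb8 from -0.47 to 0.44. For P1 against E12.5, both sets put Hspb7 and Cryab lower at P1 (-0.84 to -0.05), but without the top cell of each set this held for Cryab (-0.58 to -0.07) and not for Hspb7 (-0.63 to 0.05). Hspb2 (-0.47 to -0.41) and Hspb8 (-0.76 to -0.53) were also lower over the sets, but ran from -0.40 to 0.53 and from -0.05 to 1.83 without those cells.

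**Figure D4:**
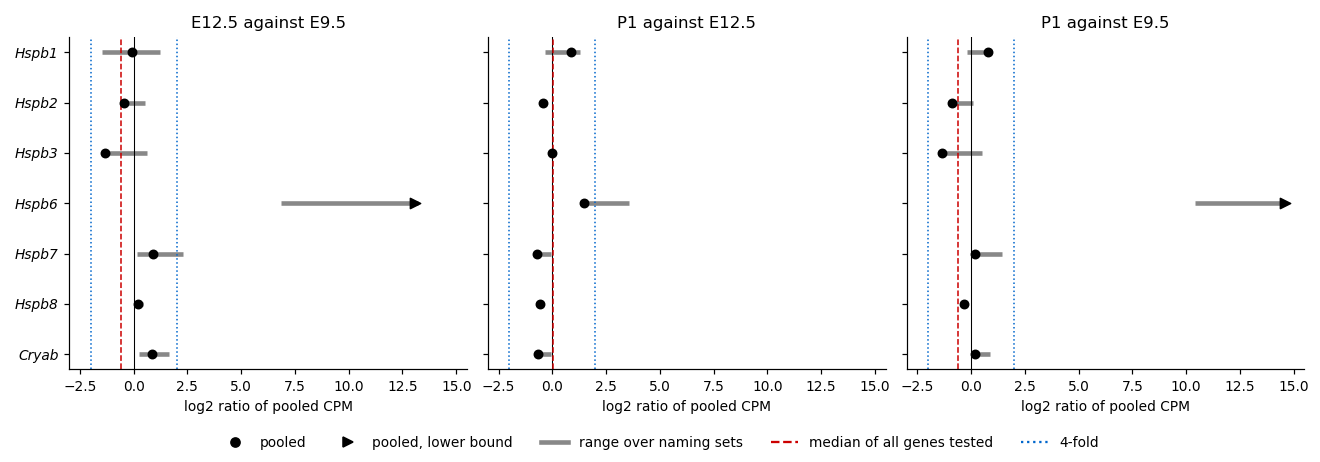
Log2 ratio of pooled CPM for each of the 7 genes in the 3 comparisons of ages (black points; arrows are lower bounds where E9.5 had no count), with grey bars for the range over naming sets, a red dashed line at the median of all genes tested and blue dotted lines at 4-fold. Hspb6 lies at 13.10 and 14.58 or more against E9.5 and at 1.48 for P1 against E12.5, and no other pooled ratio reaches a dotted line.

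The genes that accompanied Hspb6 in single cells were compared at E12.5, where cells with and without it existed side by side. All 12 cells with Hspb6 held Cryab and Hspb7, 11 held Hspb1, 11 held Hspb2, 8 held Hspb3 and 7 held Hspb8. In the 17 cells without Hspb6, Cryab and Hspb2 were found in 17, Hspb1 in 16, Hspb7 in 15, Hspb8 in 11 and Hspb3 in 10. Hspb7 had a median of 248.6 CPM with Hspb6 and 59.9 CPM without it, although the ranges overlapped (7.72 to 517 against a maximum of 769 CPM). The log2(CPM + 1) of Hspb7 had a Pearson correlation with Hspb6 of 0.48 over the 20 set C cells at E12.5. It was 0.51 over the 8 N523 cells, of which only 2 held Hspb6, and 0.19 over the 41 P1 cells. These are cells of 1 sample per age and differ in depth. Cryab differed less than Hspb7 between cells with and without Hspb6, with medians of 1309 and 1114 CPM. Over all 29 E12.5 cells the correlations with Hspb6 were 0.34 for Hspb7, 0.14 for Cryab and 0.12 for Hspb3. They were -0.26 for Hspb8 and -0.28 for both Hspb1 and Hspb2. In N523 they were -0.79 for Hspb1, -0.65 for Hspb2 and -0.48 for Hspb8. After thinning, Hspb1 was in 5 of 11 cells with Hspb6 and 14 of 18 without. At P1, Hspb3 was found in 22 of the 37 cells with Hspb6 and in 0 of the 4 without, and Hspb8 in 12 and 0, and so few cells without Hspb6 allow no comparison.

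The chambers were looked at through Sln, which encodes the atrial calcium-pump regulator sarcolipin, and Myl2, the ventricular myosin light chain. At P1, 7 cells had 10 or more counts of Sln. By rising Sln level, their Hspb6 levels were 1177, 23.7, 792, 1442, 52.9, 0 and 16.0 CPM. Their median was 52.9 CPM beside 680 CPM in the other 34 cells, and 4 of 7 against 6 of 34 were under 100 CPM, but the groups overlapped, from 0 to 1442 CPM and from 0 to 1778 CPM. Cryab had medians of 889 and 976 CPM in the same cells, and Hspb2 of 347 and 179 CPM. Hspb8 was found in 0 of 7 and 12 of 34 cells. Myl2 had a median of 826 CPM (0 to 6790) in the 7 cells and 7402 CPM (0 to 11491) in the 34. The Sln cells with 1177 and 792 CPM of Hspb6 had 6790 and 4718 CPM of Myl2, so Sln did not settle the chamber of a cell. The 34 cells include the P1 cell that lacked cardiomyocyte markers, which had no count of Hspb6. At E12.5, Myl2 was at 1000 CPM or more in 10 of the 12 cells with Hspb6 and in 11 of the 17 without. Sln reached 10 counts in 1 and 5 of these cells, and 1 count in 3 and 5. The cut of 10 counts depends on depth. A set C cell with Hspb6 missed it at 60.7 CPM of Sln, and an N523 cell without Hspb6 passed it at 39.2 CPM. The E12.5 cell with 1797 CPM of Hspb6 had 3404 CPM of Myl2 and 32004 CPM of Nppa, the atrial natriuretic peptide gene.

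**Figure D5:**
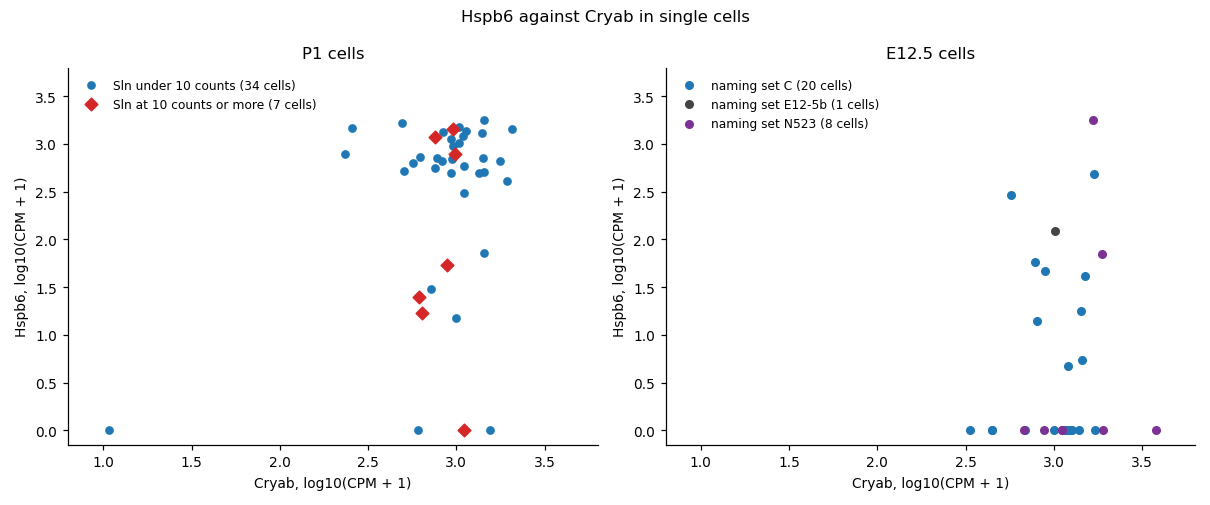
Hspb6 against Cryab in single cells, both as log10(CPM + 1), at P1 (left; red diamonds are the 7 cells with 10 or more counts of Sln) and at E12.5 (right; colours are naming sets). At P1, Cryab lies between 232 and 2079 CPM in all cells but 1 (9.72 CPM), while Hspb6 runs from 0 to 1778 CPM there and from 0 to 1797 CPM at E12.5.

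Genes with a pattern like that of Hspb6 were ranked by the Pearson correlation of log2(CPM + 1) over the 112 cells, among 5986 genes found in 25% or more of them. The closest were Cox8b, a subunit of cytochrome c oxidase (0.79), Ckm, the muscle creatine kinase (0.77), Mb, myoglobin (0.76), Casq2, cardiac calsequestrin (0.76) and Ptgds, a prostaglandin D synthase (0.73). These coefficients mostly follow the ages. Within the P1 cells they were 0.32, 0.46, 0.49, 0.37 and 0.02, and within set C at E12.5 they were -0.03, -0.12, -0.19, -0.10 and 0.13. For Hspb1 the closest were Myl9, a regulatory myosin light chain (0.55), Pgam2, the muscle phosphoglycerate mutase (0.47), Klhl31 (0.45), Tnnc1, cardiac troponin C (0.44) and Adk, adenosine kinase (0.44), with 0.42, 0.33, 0.34, 0.41 and 0.25 within P1. No other member of the family was among the 5 closest to either gene.

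Of the genes listed with the family outside the 7, Cryaa (αA-crystallin), Hspb9 and Odf1 had no count at any age. Hspb11, listed by its name alone, was found in 12 of 42, 16 of 29 and 11 of 41 cells, at 10.6, 10.2 and 26.1 CPM pooled.

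The other chaperones of the cell were described through lists, with the calls defined above. Of 11 tested genes of HSP90 and its cochaperones, 0 were higher and 1 lower at P1 than at E12.5, beside 17.5% and 14.2% of all genes tested. It was Stip1, the HSP70-HSP90 adaptor (403 to 83.0 CPM). From E9.5 to E12.5, 2 of 12 tested genes were lower, a share near the 16.0% of all genes tested. They were Ahsa1, an activator of the HSP90 ATPase (173 to 36.3 CPM), and the myosin chaperone Unc45a (38.1 to 0.218 CPM). Unc45a was found in only 7 of 42 and 2 of 29 cells, and Ahsa1 in 31 and 22. The list summed to 11757, 11172 and 4118 CPM at the 3 ages, and 5 of its 12 genes were lower at P1 than at E9.5, beside 21.4% of all genes tested. The median log2 ratio of the list was -1.67, beside -0.59 over all genes tested. Of 13 tested HSP70 and HSP110 genes, Hspa12a was higher (0.0989 to 44.7 CPM) and Hspa13 lower (79.6 to 14.96 CPM) at P1 than at E12.5. This was beside the same 17.5% and 14.2%. Hspa12a had been lower at E12.5 than at E9.5 (22.7 CPM), 1 of 14 tested beside 16.0% of all genes. It was found in only 5 of 42, 2 of 29 and 8 of 41 cells at the 3 ages. Hspa13 was found in 9 of 29 cells at E12.5 and 4 of 41 at P1. None of the 10 chaperonin genes was called in any comparison, at sums of 5066, 4864 and 2862 CPM, where 4.66% to 17.5% of all genes tested were called higher and 14.2% to 21.4% lower.

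Among the 15 tested HSP40 genes, counts of calls were near the shares over all genes tested (17.5% higher and 14.2% lower). There, 3 were higher at P1 than at E12.5, namely Dnaja4 (6.27 to 78.3 CPM), Dnajb2 (0.831 to 15.7 CPM) and Dnajb12 (1.62 to 13.3 CPM). Dnajb2 was found in only 5 of 29 cells at E12.5 and 7 of 41 at P1, and Dnajb12 in 4 and 7. Of the 15, 2 were lower at P1, namely Dnajb1 (372 to 1.91 CPM) and Dnajc5 (138 to 25.5 CPM). From E9.5 to E12.5, 1 of 14 tested was higher (Dnajb6, 11.7 to 55.1 CPM) and 1 lower (Dnajb11, 80.4 to 13.7 CPM), beside 4.66% and 16.0% of all genes tested. In the list of chaperone-assisted autophagy, of which Hspb8 is itself a member, 2 of 12 tested genes were higher and 1 lower at P1 than at E12.5, near the same shares of 17.5% and 14.2%, and 1 of 11 was higher and 1 lower at E12.5 than at E9.5. Bag3 went from 53.2 to 8.59 and back to 41.6 CPM, called lower and then higher. Dnajb2 and Dnajb6 belong to this list as well, with the calls given above, and Synpo2, a Z-disc adaptor in this pathway, was lower at P1 (25.3 to 2.35 CPM). Among the 3 tested heat shock factor genes, too few to read against those shares, Hsf1 was lower at P1 than at E12.5 (38.9 to 5.57 CPM), and Hsbp1, which binds and restrains Hsf1, was higher at E12.5 than at E9.5 (93.3 to 404 CPM).

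Of 11 tested cytoskeletal and sarcomeric partners, 3 were higher at P1 than at E12.5 and 0 lower. They were Ttn, the giant spring of the sarcomere (4886 to 22686 CPM), Pln, the calcium-pump inhibitor phospholamban (1004 to 6206 CPM), and Dmpk (3.30 to 19.9 CPM). This was beside 17.5% of all genes tested called higher and 14.2% called lower. Ttn at E12.5 was at 8028 CPM in set C and 4216 CPM in N523, both below P1. The 4-fold rule was applied over all cells and not to each set. At E9.5 the naming sets differed, with Ttn at 5414 CPM in set C and 26517 CPM in N530 and Dmpk at 3.22 and 39.9 CPM, so set C lay below P1 and N530 above it. The list summed to 30263, 11897 and 42542 CPM at the 3 ages, but to 8172, 14784 and 42542 CPM in set C. Pln and Tcap, a Z-disc cap of titin, were higher at E12.5 than at E9.5 (from 76.5 and 22.8 CPM to 1004 and 132 CPM), which made 2 of 11 tested beside 4.66% of all genes. The median log2 ratio of the list was 1.26 for P1 against E12.5, beside 0.05 over all genes tested.

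Of 12 tested genes of the dissociation stress response, 6 were lower at P1 than at E12.5 and 0 higher, beside 14.2% of all genes tested called lower and 17.5% higher. Among the 6 were Btg2 (727 to 67.7 CPM), Atf3 (404 to 26.4 CPM), Dnajb1 and Egr1 (316 to 54.7 CPM), and of 11 tested from E9.5 to E12.5, Atf3 was higher (from 66.2 CPM) and Fosb lower (75.1 to 12.3 CPM), beside 4.66% and 16.0% of all genes. The list summed to 1287, 2414 and 310 CPM at the 3 ages, with a range per cell of 93.1 to 8765 CPM at E9.5, 0 to 13894 CPM at E12.5 and 0 to 2715 CPM at P1. It was lowest at P1, the age at which Hspb6 was highest, and its part in the levels of the 7 genes was not tested.

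Markers of other cell types stood beside these values as follows. The 5 smooth muscle markers, which embryonic cardiomyocytes also express in part, summed to 5887, 2275 and 1729 CPM, with Myh11, the defining one, at 0.208 CPM at E9.5 and at 0 at E12.5 and P1. The 6 endothelial markers summed to 67.7, 0.0594 and 233 CPM with 0, 4 and 1 of them at 0, the 7 fibroblast markers to 206, 51.4 and 3.37 CPM with 3, 0 and 6 at 0, and the 4 epicardial markers to 186, 33.3 and 21.4 CPM with 2, 2 and 3 at 0. The epicardial order turned in set C, at 50.97 CPM for E9.5 and 145 CPM for E12.5. Single cells carried several of these sums. Without the highest cell of each, the endothelial sum was 0.907 CPM at P1, the fibroblast sums were 71.4, 8.42 and 0 CPM, and the epicardial sums were 36.6, 30.4 and 13.6 CPM. The 5 macrophage markers summed to 42.1, 6.69 and 13.3 CPM with 4, 3 and 4 at 0 (23.9, 4.71 and 0 CPM without the highest cell), and 3, 4 and 4 of the 4 erythroid markers measured were at 0. The highest level of a list in a cell was 22262 CPM for smooth muscle at E9.5 and 7702 CPM for endothelium at P1. With cells lacking cardiomyocyte markers left out, Hspb6 remained the only gene called at E12.5 and at P1 against E9.5, and the part of the other markers was not tested.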

How the data were processed

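Sorted αMHC+ cells were processed by the authors on Fluidigm C1 chips with SMART-Seq V4 chemistry and single-read sequencing. Reads were aligned with OLego, and the deposited counts are whole featureCounts counts per gene symbol, not normalized, on GRCm38/mm10. The authors divided counts by gene length to make the deposited TPM, which is linear here. The methods describe the removal of cells with few reads, and whether this preceded deposit is not given in the sources used here. Nothing names animals, litters or chips, no pair of columns was identical, and no doublet caller was run.

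Cells were grouped by age from the labels and by the set in their names. Cells under 2000 genes (11 of P1) were left out. CPM was pooled (summed counts over summed totals), and 95% intervals were exact Poisson for counts and exact Clopper-Pearson for shares. They cover counting error only, since each age is 1 sample. SMART-Seq reads carry no molecular identifiers, so the counts are of reads and not of molecules. A gene was found in a cell at 1 count. A level of 0 was set to 3 counts over the group for ratios. Calls needed 4-fold over all cells, 10 CPM and the same direction in every combination of naming sets of 6 cells or more. With 1 sample per age no test was run. Correlations used log2(CPM + 1). Thinning drew 60000 counts per cell without replacement, and no kept cell was shallower. The scripts were tested on simulated data.

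The members, lists and rules were chosen with earlier results of these data known. The text names the 7 members, the other genes listed with the family, and the 5 genes most correlated with Hspb6 and with Hspb1. In each list it names the genes called at P1 against E12.5 or E12.5 against E9.5 (up to 4 of each direction by level). The lists were HSP90 and cochaperones, HSP70 and HSP110, HSP40, chaperonins, chaperone-assisted autophagy, heat shock factors, sarcomeric partners, dissociation stress and cell type markers. Alternatives were means of cell CPM or TPM, TMM factors from edgeR 4.0.16 (R 4.3.3), single naming sets, thinning, 2 or 10 counts to be found, 1000 or 3000 genes, 2-fold or 8-fold, 50 CPM or no minimum, cells with cardiomyocyte markers only, titles ending in "no" left out, and leaving out the cell with the most counts, which was added for the calls, and for levels and ratios within naming sets, after seeing the data. Python 3.11.15, numpy 2.4.6, pandas 2.3.3 and scipy 1.17.1 were used. RefSeq promoters and GENCODE gene models of the same build gave sequences and loci. Protein sequences were not used here.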

Additional observations from a re-analysis of the deposited data

Results flagged for a closer look

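The 11 P1 cells under 2000 genes, which entered no comparison, held counts of 6 of the 7 genes above the limit that a count of 0 allows in their 714929 counts (4.196 CPM). Pooled over these cells, Hspb6 stood at 1073 CPM (8 of 11 cells), Cryab at 740 CPM (11 of 11 cells), Hspb2 at 192 CPM, Hspb7 at 154 CPM, Hspb3 at 82.5 CPM and Hspb1 at 62.9 CPM. Hspb8 had no count there. The cells had 4903 to 149120 counts and at most 1985 genes, and the highest Hspb6 level among them was 3678 CPM. These are values of cells with few genes and no replicate, not all of them shallower than the kept cells (from 69522 counts), and what set them apart from the kept P1 cells was not tested.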

How the results depend on the processing

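Of the 7 genes, Hspb6 alone was called higher at E12.5 and at P1 than at E9.5 under every alternative run for the calls. Within naming sets and without their top cells, Hspb7 also passed 4-fold against set C of E9.5. There it was 5.74-fold higher in set C at E12.5, 9.17-fold in N523 and 5.93-fold at P1. Against N530 it was at most 1.84-fold. The call of Hspb6 at P1 against E12.5 depended on the setting. The number of the 7 genes called there was 0 as reported, with TMM factors, the deep sets, a minimum of 1000 genes, an 8-fold rule, 50 CPM or no minimum, titles ending in no left out or cardiomyocyte-marker cells only, and 1 (Hspb6) with means of cell CPM, means of deposited TPM, set C only, cells thinned to 60000 counts, a minimum of 3000 genes, a 2-fold rule, or without the cell with the most counts, an alternative added after seeing the data. Its log2 ratio ran from 1.22 with TMM factors to 4.79 without the cell with the most counts at each age (4.85 with the E12.5 cell alone left out), and to 5.56 against N523 without its top cell. No call turned in direction, whereas uncalled ratios of Hspb1, Hspb2, Hspb3 and Hspb8 changed sign in at least 1 comparison, with set C only, another scaling, thinning, a minimum of 3000 genes or the top cells left out. Without the top cells, P1 against E12.5 went from -0.41 to 0.25 for Hspb2 and from -0.56 to 0.56 for Hspb8, and against set C, without the top cell of each set, from -0.05 to 0.05 for Hspb7. Of the values for single genes, 350 stayed within the spread of the main value and 75 moved, 18 of them with set C only and 13 with a minimum of 3000 genes. Members found in at least 50% of cells at E9.5 numbered 4 in the main analysis and in every alternative but set C only, which added Hspb3. No paired analysis was possible because each age is 1 sample and no label pairs cells across ages. At 10 counts in place of 1 to be found, 8 shares moved, and Hspb6 was in 7 in place of 12 E12.5 cells and Hspb1 in 15 in place of 36 P1 cells. Depth limits the shares: thinned to 60000 counts, Hspb1 was found in 19 in place of 27 E12.5 cells and Hspb8 in 10 in place of 18, and at P1 the median cell had 149078 counts.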
